A study of Mus musculus with 6 samples.

Results

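Myogenic transcription factors switch on the genes of skeletal muscle, and the acetylcholine receptor of the muscle endplate receives the signal of the motor nerve. The 10 genes described here were taken by name: the basic helix-loop-helix (bHLH) factors Myf6, Myod1, Myog and Myf5, the paired-box factor Pax7, the MEF2 factors Mef2d, Mef2c and Mef2a, the receptor subunit gene Chrna1 and the receptor tyrosine kinase gene Musk. The table holds 33919 genes, and all 10 members passed the filter on low counts. RNA was sequenced from 6 libraries labelled mouse aorta, 3 labelled KO and 3 labelled WT, and all 6 came from mice given Ang II, that is angiotensin II, a peptide that constricts vessels. The labels name the allele only as KO, the series title names endothelial OTUD1, a deubiquitinating enzyme, and strain, age and Ang II dose are not stated in these sources. The design text speaks of separate mice in each group, but the labels hold no animal identifiers, so p-values reflect only how these libraries vary, which may be technical.

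Total counts were 65.3 to 71.5 M (megacounts) in the libraries labelled KO and 62.3 to 70.5 M in those labelled WT. Outside mitochondrial genes and their nuclear copies, 23.0 to 23.4 M remained in the libraries labelled KO and 17.3 to 19.4 M in those labelled WT. Otud1 had 1033, 1141 and 1223 counts in the libraries labelled KO, against 593, 699 and 615 in those labelled WT (log2 fold change 0.63, SE 0.12, edgeR adjusted p = 0.0039). The gene named in the title was thus higher in the libraries labelled KO, so the groups are called by their labels throughout. Every direction given here rests on these labels and would turn if they were exchanged, which was not tested.

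As background, the bHLH factors bind the E-box, written CANNTG, as partners of the widely expressed E proteins. Myf5 and Myod1 commit cells to the muscle lineage, Myog drives their differentiation, and Myf6 is the member that mature fibres express most. Pax7 marks satellite cells, the stem cells of muscle. The MEF2 factors bind A/T-rich sites and work together with the bHLH factors. At the endplate, nerve-derived agrin acts through Lrp4 on the kinase MuSK, which gathers acetylcholine receptors under the nerve ending, and denervated fibres raise Chrna1, Musk and Myog.

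The 4 bHLH genes are paralogs, so the sequence they share is shown to let a reader see how well reads can be told apart. The stretches below are 90 coding bases of exon 1, within the part that encodes the bHLH domain, read 5′ to 3′ on the coding strand from the GENCODE M21 transcripts (GRCm38), with capitals at the 59 positions that are identical in all 4 genes.
Myf6: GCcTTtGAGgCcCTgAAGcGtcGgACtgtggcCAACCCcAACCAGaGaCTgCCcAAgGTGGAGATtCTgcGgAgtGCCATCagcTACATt
Myod1: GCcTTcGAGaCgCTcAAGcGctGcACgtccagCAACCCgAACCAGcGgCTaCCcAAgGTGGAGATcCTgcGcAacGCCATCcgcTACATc
Myog: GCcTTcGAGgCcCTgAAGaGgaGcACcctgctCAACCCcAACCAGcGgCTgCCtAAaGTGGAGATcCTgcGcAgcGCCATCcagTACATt
Myf5: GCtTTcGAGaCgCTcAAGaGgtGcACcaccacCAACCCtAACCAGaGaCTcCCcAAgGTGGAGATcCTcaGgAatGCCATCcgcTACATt
They lie at chr10:107494282-107494371 (Myf6, minus strand), chr7:46377054-46377143 (Myod1, plus strand), chr1:134290353-134290442 (Myog, plus strand) and chr10:107485539-107485628 (Myf5, minus strand). Over these 90 bases Myf6 shared 74.4% of positions with Myod1, 78.9% with Myog and 76.7% with Myf5. The longest identical run between the Myf6 transcript and that of any of the other 3 genes was 14 bases, and over all pairs the longest was 26 bases, between Myod1 and Myf5.

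Myf6 and Mef2d were higher in the libraries labelled KO, and the other 8 genes did not pass the test. Myf6 was 2.16-fold higher and Mef2d 1.32-fold higher. With 2 of 10 members called, the share of 20% was near the background: edgeR called 22% of the 16620 genes tested, 11.5% higher and 10.5% lower, so the count in itself is no result about these genes. Of the genes called, 52.1% were higher, a split that became 71.2% to 72.6% in limma on the deposited FPKM. The median log2 fold change over the 10 genes was 0.36, against -0.02 over all genes tested. In CPM, which are counts per megacount after edgeR trimmed-mean (TMM) scaling of the libraries, the groups did not overlap for 4 members, with Myf6, Mef2d and Musk above and Mef2a below, where 38.6% of all genes tested had no overlap.

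**Figure D1:**
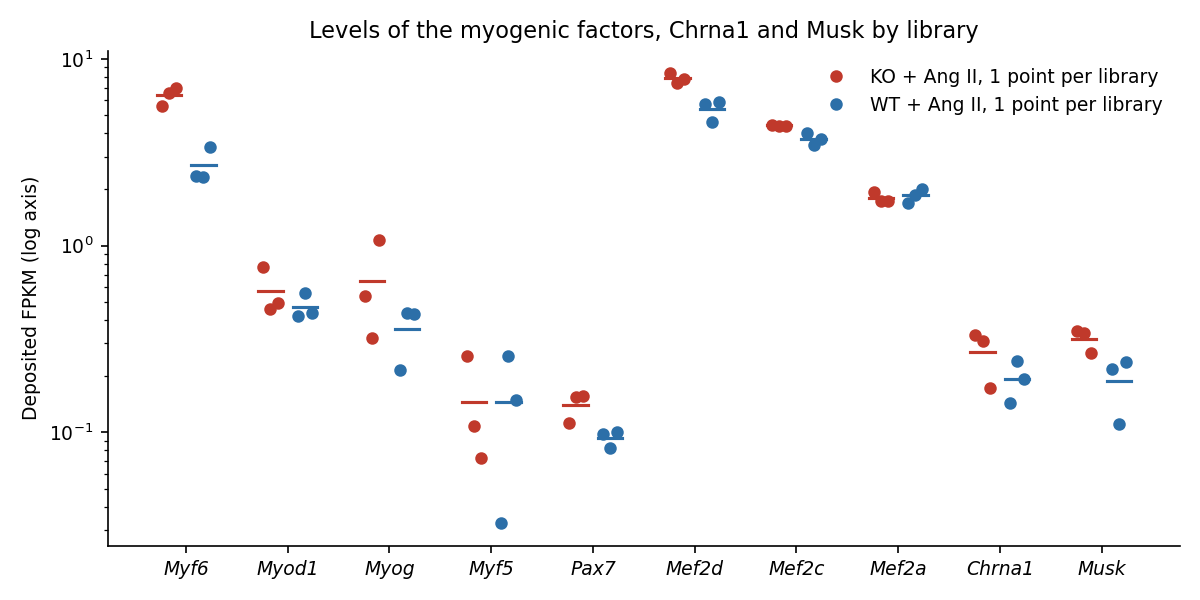
Deposited FPKM (fragments scaled by gene length and library size, log axis) of the 10 genes, with 1 point per library, the libraries labelled KO on the left of each pair, and bars at the group means. The 3 points of Myf6 at 5.62 to 7.02 FPKM in the libraries labelled KO lie above those at 2.34 to 3.38 FPKM in the libraries labelled WT, while the points of Myod1, Myog and Myf5 overlap between the groups.

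Myf6 (ENSMUSG00000035923, chr10:107492853-107494737, minus strand, GRCm38) was the most abundant bHLH factor in every library and the member with the largest change that passed the test. It had 510, 645 and 695 counts in the libraries labelled KO, against 234, 217 and 297 in those labelled WT. These counts came to 7.16, 8.82 and 9.57 CPM in the libraries labelled KO and 3.49, 3.61 and 4.75 in those labelled WT. Every library labelled KO lay above every library labelled WT. The log2 fold change was 1.11 (SE 0.18, 95% interval 0.72 to 1.5, edgeR quasi-likelihood test, adjusted p = 0.0011). The call was kept in all 16 alternative settings, where the fold change ran from 1.01 to 1.26 on the log2 scale.

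Myf5, the factor of early commitment, lies 6718 bp from Myf6 on the same strand (ENSMUSG00000000435, chr10:107482908-107486134) and gave a different picture. It had 39, 18 and 12 counts in the libraries labelled KO, against 6, 40 and 22 in those labelled WT. The groups overlapped over nearly their whole range, and the lowest value in each group was at or under 12 counts, the floor set here. Its log2 fold change of -0.20 (SE 0.89, adjusted p = 0.91) had a 95% interval from -2.17 to 1.76, so a change of the size seen for its neighbour Myf6 lay within it. The sign turned in some settings, for example to 0.53 without the second library labelled WT and 0.11 without the third library labelled KO.

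Myod1 (ENSMUSG00000009471, chr7:46376474-46379099, plus strand), the factor able to turn fibroblasts into muscle cells, had 103, 66 and 72 counts in the libraries labelled KO, against 62, 77 and 57 in those labelled WT. The groups overlapped, and its highest value was that of the first library labelled KO. Its log2 fold change was 0.10 (SE 0.40, 95% interval -0.77 to 0.98, edgeR adjusted p = 0.90), and without the first library labelled KO it was -0.13.

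Myog (ENSMUSG00000026459, chr1:134289989-134292548, plus strand), which encodes myogenin, had 58, 38 and 126 counts in the libraries labelled KO, against 26, 48 and 45 in those labelled WT. The third library labelled KO stood high, the first lay just above the libraries labelled WT, and the second lay among them. A log2 fold change of 0.69 (SE 0.56, 95% interval -0.56 to 1.93, edgeR adjusted p = 0.45) became 0.07 when the third library labelled KO was left out.

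Per length, Myf6 led the 4 bHLH factors in all 6 libraries. Their summed level was 7.19, 7.47 and 8.66 FPKM in the libraries labelled KO, against 3.01, 3.60 and 4.40 FPKM in those labelled WT. Myf6 made up 78.2%, 88.1% and 81.1% of that sum in the libraries labelled KO, against 77.9%, 65.2% and 76.9% in those labelled WT. The 2 ranges touch closely without overlapping, with 78.2% as the lowest share in the libraries labelled KO and 77.9% as the highest in those labelled WT. Myod1 took 5.68% to 10.7% in the libraries labelled KO and 9.93% to 15.6% in those labelled WT, and Myog took 4.31% to 12.4% in the libraries labelled KO and 7.12% to 12.05% in those labelled WT. Myf5 took 0.841% to 3.58% in the libraries labelled KO and 1.08% to 7.13% in those labelled WT, and the groups overlapped for each of these 3.

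**Figure D2:**
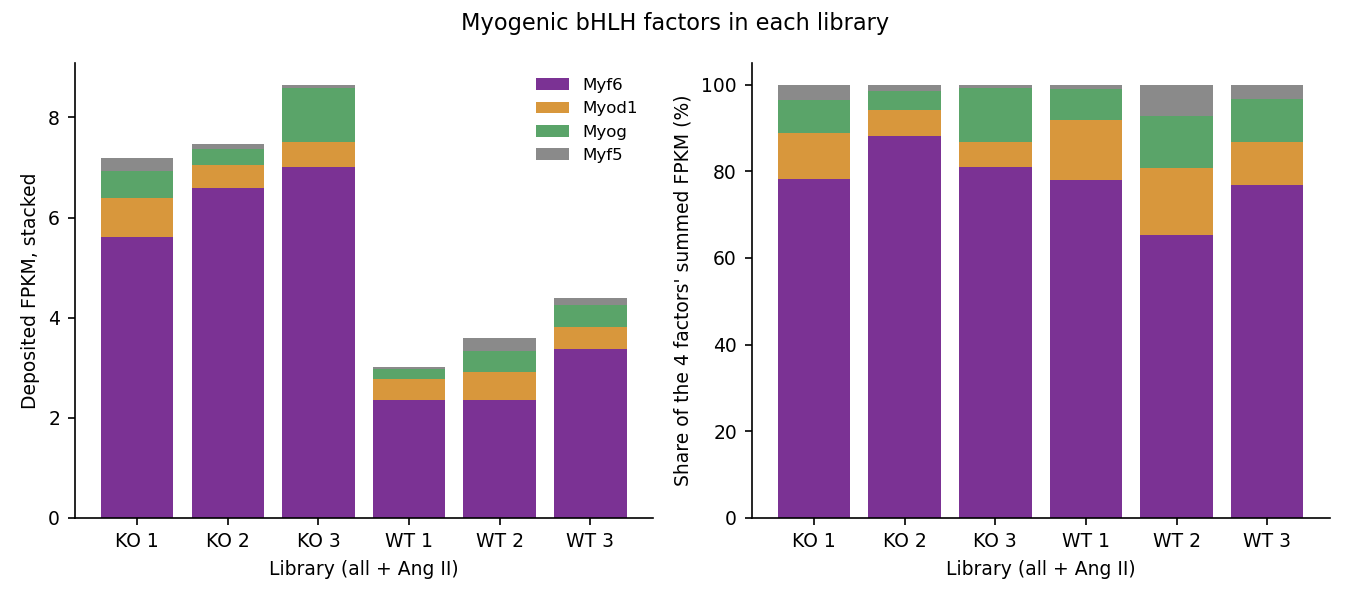
Deposited FPKM of Myf6, Myod1, Myog and Myf5 stacked for each library (left) and as percent of their sum (right), libraries labelled KO first. Myf6 fills most of every bar, and the summed level of 7.19 to 8.66 FPKM in the libraries labelled KO lies above the 3.01 to 4.40 FPKM of those labelled WT.

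Pax7 (ENSMUSG00000028736, chr4:139737062-139833528, minus strand) had 47, 71 and 72 counts in the libraries labelled KO, against 46, 36 and 42 in those labelled WT. In FPKM it averaged 0.141 ± 0.0253 in the libraries labelled KO and 0.0939 ± 0.0103 in those labelled WT (SD, n = 3 each). The counts stood higher in the second and the third libraries labelled KO, while the first was close to those labelled WT and in CPM lay below 2 of them. Its log2 fold change was 0.42 (SE 0.46, 95% interval -0.59 to 1.44, edgeR adjusted p = 0.58).

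The MEF2 factors were better measured, with higher counts than the other members in every library, and they did not move alike. Mef2d (ENSMUSG00000001419, chr3:88142372-88172086, plus strand) had 3600, 3459 and 3685 counts in the libraries labelled KO, against 2712, 2018 and 2434 in those labelled WT. On the CPM scale it had 50.5, 47.3 and 50.8 in the libraries labelled KO and 40.4, 33.6 and 38.9 in those labelled WT, and the groups did not overlap. The fitted log2 fold change was 0.40 (SE 0.081, 95% interval 0.22 to 0.58, edgeR adjusted p = 0.0049), and the call was kept in all 16 alternative settings, between 0.32 and 0.54.

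Mef2c (ENSMUSG00000005583, chr13:83504034-83667078, plus strand), which also serves in heart and vessel development, stood at 70.3, 73.2 and 74.1 CPM in the libraries labelled KO, against 73.6, 65.8 and 65.2 CPM in those labelled WT. The first library labelled WT lay among those labelled KO. Its log2 fold change was 0.09 (SE 0.063, edgeR adjusted p = 0.37). Its 95% interval, -0.05 to 0.23, overlapped slightly with that of Mef2d, 0.22 to 0.58, and the difference between the 2 genes was not tested.

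Mef2a (ENSMUSG00000030557, chr7:67231163-67372858, minus strand) stood at 28.6, 27.1 and 27.5 CPM in the libraries labelled KO, against 29.3, 33.2 and 32.9 CPM in those labelled WT. All 3 libraries labelled KO lay below all 3 labelled WT on this scale, while in FPKM the groups overlapped, at 1.93, 1.74 and 1.74 in the libraries labelled KO and 1.70, 1.86 and 2.02 in those labelled WT. The log2 fold change was -0.20 (SE 0.080, 95% interval -0.37 to -0.02) and missed the threshold in edgeR (unadjusted p under 0.05, adjusted p = 0.11), whereas DESeq2 called it lower (adjusted p = 0.031). Lysmd4, a gene on the opposite strand with a mean of 288 counts, overlaps the span of Mef2a. It could share reads with Mef2a where exons overlap, if strand was not used in counting. Overlaps here and below are of gene spans, and exon overlap was not checked.

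The order of the MEF2 levels depended on the length used. In FPKM, Mef2d was highest, at 7.89 ± 0.462 in the libraries labelled KO and 5.41 ± 0.700 in those labelled WT, and Mef2c came next, at 4.40 ± 0.0381 in the libraries labelled KO and 3.72 ± 0.279 in those labelled WT (SD, n = 3 each). The deposited counts and FPKM, however, imply a length for Mef2c that is 2.77 times its longest annotated transcript and for Mef2a one that is 2.93 times, against 1.11 to 1.23 times for the other 8 members. Divided by the longest transcript, Mef2c led with 11.6 ± 0.315 CPM per kilobase in the libraries labelled KO and 10.9 ± 0.748 in those labelled WT. Mef2d followed at 9.17 ± 0.357 in the libraries labelled KO and 6.97 ± 0.664 in those labelled WT. On both scales the share of Mef2d in the MEF2 sum was higher in the libraries labelled KO, at 34.6% to 36.4%, against 27.4% to 30.6% in those labelled WT, per kilobase of longest transcript. In FPKM it was 54.9% to 56.8% in the libraries labelled KO, against 46.5% to 50.4% in those labelled WT.

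Across all 10 genes on the per-kilobase scale, the MEF2 factors and Myf6 stood well above the rest. Myf6 had 5.67 to 7.58 CPM per kilobase in the libraries labelled KO, above the 4.89 to 5.17 of Mef2a there. In the libraries labelled WT the order was turned, with Myf6 at 2.76 to 3.76 and Mef2a at 5.28 to 6.0 CPM per kilobase. All other members averaged between 0.149 and 0.684 CPM per kilobase in the libraries labelled KO and between 0.111 and 0.558 in those labelled WT. Among these, neighbours such as Myog and Myod1, Musk and Chrna1, or Myf5 and Pax7 had overlapping ranges in both groups.

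Chrna1 (ENSMUSG00000027107, chr2:73563215-73580338, minus strand) encodes the ligand-binding alpha subunit of the muscle acetylcholine receptor. It had 105, 105 and 60 counts in the libraries labelled KO, against 50, 78 and 59 in those labelled WT, which gave 1.47, 1.44 and 0.827 CPM in the libraries labelled KO and 0.745, 1.30 and 0.943 CPM in those labelled WT. The first and second libraries labelled KO stood above all others, and the third lay among those labelled WT. Its log2 fold change was 0.32 (SE 0.41, 95% interval -0.59 to 1.24, edgeR adjusted p = 0.65).

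Musk (ENSMUSG00000057280, chr4:58285960-58374303, plus strand) had 95, 101 and 80 counts in the libraries labelled KO, against 65, 31 and 62 in those labelled WT. In CPM the groups did not overlap, at 1.33, 1.38 and 1.10 in the libraries labelled KO and 0.968, 0.516 and 0.991 in those labelled WT. A log2 fold change of 0.62 (SE 0.41, 95% interval -0.29 to 1.54) did not pass the test (edgeR adjusted p = 0.34), and without the second library labelled WT, the lowest, it was 0.37.

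**Figure D3:**
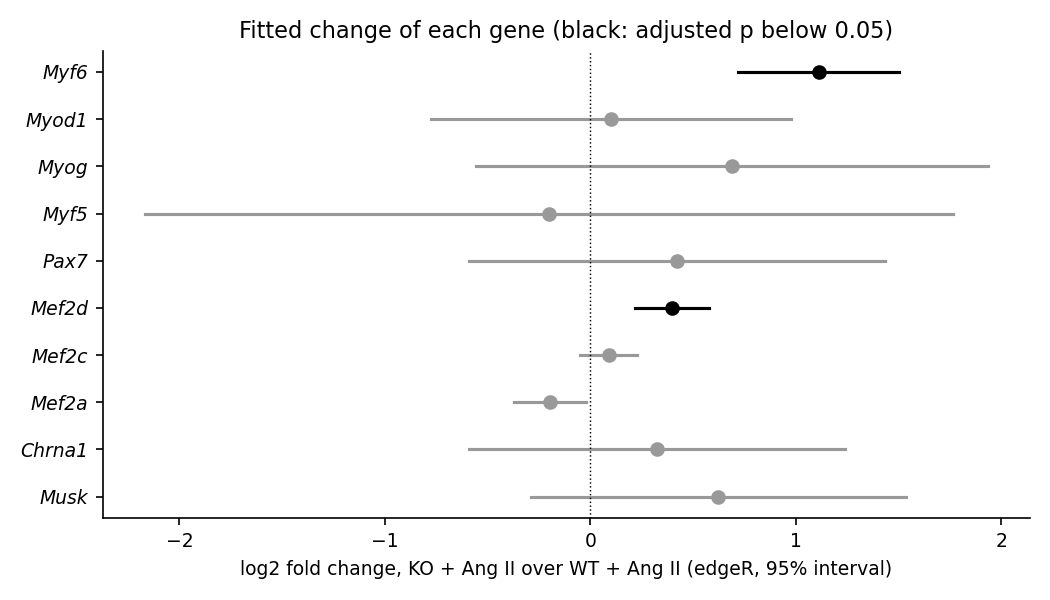
Fitted log2 fold change of each gene, libraries labelled KO over those labelled WT, with its 95% interval from edgeR. The intervals of Myf6 (0.72 to 1.5) and Mef2d (0.22 to 0.58) lie above 0 and are drawn in black, and that of Myf5 is the widest, from -2.17 to 1.76.

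Chrna1 and Myog are textbook targets of the bHLH and MEF2 factors, so the windows before their start sites are shown, as 250 bases ending at the base before the start, from RefSeq on GRCm38.p6 and read along the gene. Capitals mark the E-box CANNTG and the MEF2-like motif CTANNNNTA, searched on both strands.
Chrna1: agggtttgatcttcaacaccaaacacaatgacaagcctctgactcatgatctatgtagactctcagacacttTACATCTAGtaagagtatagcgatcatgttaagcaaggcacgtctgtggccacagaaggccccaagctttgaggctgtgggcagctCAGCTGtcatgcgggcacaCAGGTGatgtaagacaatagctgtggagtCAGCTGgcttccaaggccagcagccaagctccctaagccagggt
Myog: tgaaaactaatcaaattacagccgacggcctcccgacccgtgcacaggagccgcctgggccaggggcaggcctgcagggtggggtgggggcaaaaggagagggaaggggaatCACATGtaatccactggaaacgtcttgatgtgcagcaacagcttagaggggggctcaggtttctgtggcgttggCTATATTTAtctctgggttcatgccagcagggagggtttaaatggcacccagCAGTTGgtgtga
They lie at chr2:73580339-73580588 (Chrna1, minus strand) and chr1:134289754-134290003 (Myog, plus strand). The Chrna1 window holds CAGCTG at 92 and 44 bases and CAGGTG at 73 bases before the start. In the Myog window CTATATTTA begins 64 bases before the start, with E-boxes at 138 and 12 bases. Such matches are common: of 32851 promoter windows of this length, 66.2% hold CANNTG, 13% hold CAGCTG and 19% hold CTANNNNTA. The table has windows for 8 of the 10 members, and that of Mef2d, the called member with a window, holds neither motif.

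Of the 3 receptor subunit genes tested, edgeR called 0, with 1 of them, Chrnb1, at an unadjusted p under 0.05. Chrnb1, the beta subunit, had the highest FPKM of the subunit genes, with 6.34, 5.66 and 5.35 in the libraries labelled KO, against 4.86, 3.83 and 4.19 in those labelled WT. The groups did not overlap in FPKM, a scale on which 71.2% to 72.6% of the genes called in limma were higher. Its log2 fold change was 0.27 (SE 0.11), and it missed the threshold in edgeR (adjusted p = 0.11), passing it in 4 of the 16 alternatives, among them DESeq2 (adjusted p = 0.045) and the fit that left out the first WT-labelled library (adjusted p = 0.045). Chrnb1 took 92.1% to 95.6% of the summed FPKM of the 5 subunit genes in the libraries labelled KO and 91.2% to 94.2% in those labelled WT. The subunits other than Chrnb1 and Chrna1 were near the floor. Chrnd had 18, 2 and 16 counts in the libraries labelled KO, against 29, 17 and 16 in those labelled WT (edgeR adjusted p = 0.54). The adult subunit Chrne had counts only in the first library of each group, 17 in that labelled KO and 19 in that labelled WT, and the fetal subunit Chrng had 0, 12 and 4 counts in the libraries labelled KO, against 25, 8 and 0 in those labelled WT, so neither was tested.

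Genes of agrin-MuSK signalling and postsynaptic assembly moved in both directions. Of 17 tested, 5 were higher and 2 lower (41.2% called, against 22% over all genes), with a median log2 fold change of 0.23. Dtna, which encodes the alpha-dystrobrevin that stabilises the endplate, had 15.6 ± 0.477 CPM in the libraries labelled KO and 7.62 ± 1.22 CPM in those labelled WT (log2 fold change 1.03, edgeR adjusted p = 0.00021). Dok7, the cytoplasmic activator of MuSK, had 10.5 ± 1.89 CPM in the libraries labelled KO and 5.92 ± 0.916 CPM in those labelled WT (0.82, adjusted p = 0.0055). Colq, the collagen tail that anchors acetylcholinesterase, fell to 2.01 ± 0.717 CPM in the libraries labelled KO, against 4.68 ± 0.269 CPM in those labelled WT (-1.22, adjusted p = 0.0062). Named after their values were seen, further called genes of the list were Rapsn, the scaffold that clusters the receptor (log2 fold change 0.91, adjusted p = 0.0070), Agrn, which encodes agrin (0.29, adjusted p = 0.025), and the adaptor gene Crk (-0.42). The count of lower genes dropped to 1 without the second or the third library labelled KO or the first labelled WT.

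Partners and inhibitors of the bHLH factors were mostly lower where they were called. Of 17 tested, 1 was higher and 6 were lower (41.2% called, against 22% over all genes), with a median of -0.42. Tcf4, an E protein, fell to 35.0 ± 0.677 CPM in the libraries labelled KO, against 57.6 ± 0.713 CPM in those labelled WT (log2 fold change -0.72, edgeR adjusted p = 1.1e-05). The other E proteins Tcf3 (-0.03) and Tcf12 (-0.16) were not called. Id1 and Id2, which encode inhibitors that bind E proteins and keep them from the bHLH factors, fell by 0.56 and 0.89 on the log2 scale, and Zeb1, an E-box repressor, fell by 0.67. Id3 (-0.34) and Id4 (-2.35) were the other lower genes and Hey1 (0.45), a Notch target, the higher one, all named after their values were seen. Hey1 missed the threshold without the first library labelled KO, or the first or second labelled WT.

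Among 16 tested regulators of MEF2, 3 were higher and 1 lower, with a median of 0.02. The share called, 25%, was near the 22% over all genes, so the count in itself is no result. Smyd1, a muscle methyltransferase gene that is itself a MEF2 target, rose to 58.2 ± 2.36 CPM in the libraries labelled KO, against 35.8 ± 3.15 CPM in those labelled WT (log2 fold change 0.70, edgeR adjusted p = 8.8e-05). Krcc1, on the opposite strand, overlaps Smyd1 and had a mean of 1200 counts. Vgll2, a cofactor of TEAD and MEF2 factors, rose by 0.46 (adjusted p = 0.0049). Akap6 (0.51, adjusted p = 0.044) lost its call in each fit that left out 1 library, with adjusted p up to 0.18. Camk2d, a calcium-dependent kinase gene, was lower (-0.66, adjusted p = 0.012), but not without the first WT-labelled library (adjusted p = 0.051) nor in the 3 limma fits on FPKM (adjusted p = 0.21 to 0.33, with changes of -0.13 to -0.39). The class II deacetylase genes Hdac4 (0.20), Hdac5 (0.02), Hdac7 (-0.05) and Hdac9 (0.88), whose products hold MEF2 inactive, were not called.

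Upstream of the bHLH factors, 3 of 13 tested genes were higher and 1 was lower, with a median of 0.42. The share called was 30.8%, against 22% over all genes. Lbx1, a factor of migrating limb muscle precursors, had 4.70 ± 0.929 CPM in the libraries labelled KO and 2.36 ± 0.273 CPM in those labelled WT (log2 fold change 0.99, edgeR adjusted p = 0.0072). Meox2, a homeobox gene of muscle precursors and vessels, fell to 10.2 ± 1.77 CPM in the libraries labelled KO, against 18.6 ± 1.69 CPM in those labelled WT (-0.87). DESeq2 called 8 genes of this list higher.

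Satellite cell markers moved in both directions. Of 16 tested, Pax7 and Myf5 among them, 2 were higher and 6 lower, with a median of -0.17. The share called was 50%, against 22% over all genes. Cdh15, the muscle cadherin, rose to 9.63 ± 0.526 CPM in the libraries labelled KO, against 4.88 ± 0.050 CPM in those labelled WT (log2 fold change 0.98, edgeR adjusted p = 0.00025). Chodl fell to 1.54 ± 0.475 CPM in the libraries labelled KO, against 5.61 ± 1.07 CPM in those labelled WT (-1.86). Cd34 (-0.44) and Notch3 (-0.78), which vessel cells also express, were lower. The genes named after their values were seen were Itga7 (0.37), which was higher, and Sdc4 (-0.41), Vcam1 (-0.90) and Heyl (-0.94), which were lower. Neither Pax7 nor Myf5 was called, and which cells the lower genes came from was not tested. In limma on the deposited FPKM 1 gene of the list was called lower, in place of 6.

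Of 8 tested genes of myoblast fusion, 25% were called, near the 22% over all genes, so the count in itself is no result. Among them 1, again Cdh15, was higher, and the count of lower genes was 1 with the filter on low counts and 0 without it. That gene, Adgrb3, was at 0 in all libraries labelled KO and had 15, 12 and 15 counts in those labelled WT, at least 1.33-fold lower at a floor of 12 counts per library. It passed the filter only through the libraries labelled WT and was called in 5 of the 12 alternatives that tested it, so its values are given as a description. The fusion genes Mymk, with 4, 0 and 8 counts in the libraries labelled KO and 0, 0 and 4 in those labelled WT, and Mymx, at 0 in the libraries labelled KO and with 0, 4 and 0 counts in those labelled WT, had too few counts to test.

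The genes listed here as bound or activated by the bHLH and MEF2 factors in the mature fibre were mostly higher. This list holds no gene of the slow-fibre markers given below, of which 6 of 7 were lower, with a median log2 fold change of -0.80. Of 20 tested, 16 were higher and 1 lower (85% called, against 22% over all genes), with a median log2 fold change of 0.43. The list was chosen with earlier results of these data known. Its genes summed to 35368 to 36559 CPM in the libraries labelled KO and 27463 to 27871 CPM in those labelled WT. The 22% covers genes of all levels and was not matched to such abundant ones. The 4 with the smallest p were Des, which encodes desmin (1.23), the fast myosin genes Myh4 (1.43) and Myh2 (1.04), and the actin gene Acta1 (0.70). Mb, which encodes the oxygen store myoglobin of oxidative fibres, was the lower gene (-0.50), named after its values were seen. Myh2 and Des overlap antisense genes with means of 994 and 167 counts.

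In the list of genes that rise after denervation, which holds Chrna1, Musk and Myog, 1 of 14 tested genes was higher and 2 were lower. The share called, 21.4%, was near the 22% over all genes, so the count in itself is no result. DESeq2 called 3 higher, and 2 were higher without the third library labelled KO, with counts divided by 4 and in the 3 limma fits on FPKM. The count of lower genes was 1 without the second library of either group and in limma without a filter on low values. Fbxo32, the atrophy ubiquitin ligase, rose to 50.5 ± 1.09 CPM in the libraries labelled KO, against 20.9 ± 3.12 CPM in those labelled WT (log2 fold change 1.27, edgeR adjusted p = 8.3e-06). Ankrd1 (-1.98) and Gadd45a (-0.89, adjusted p = 0.014) fell, and Gadd45a lost its call without the second library of either group (adjusted p = 0.054 without that labelled KO and 0.059 without that labelled WT). Trim63, the partner ligase of Fbxo32, had a log2 fold change of 0.35 (adjusted p = 0.051), and Runx1 one of -0.42 (adjusted p = 0.53). An antisense gene with a mean of 336 counts overlaps Fbxo32.

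**Figure D4:**
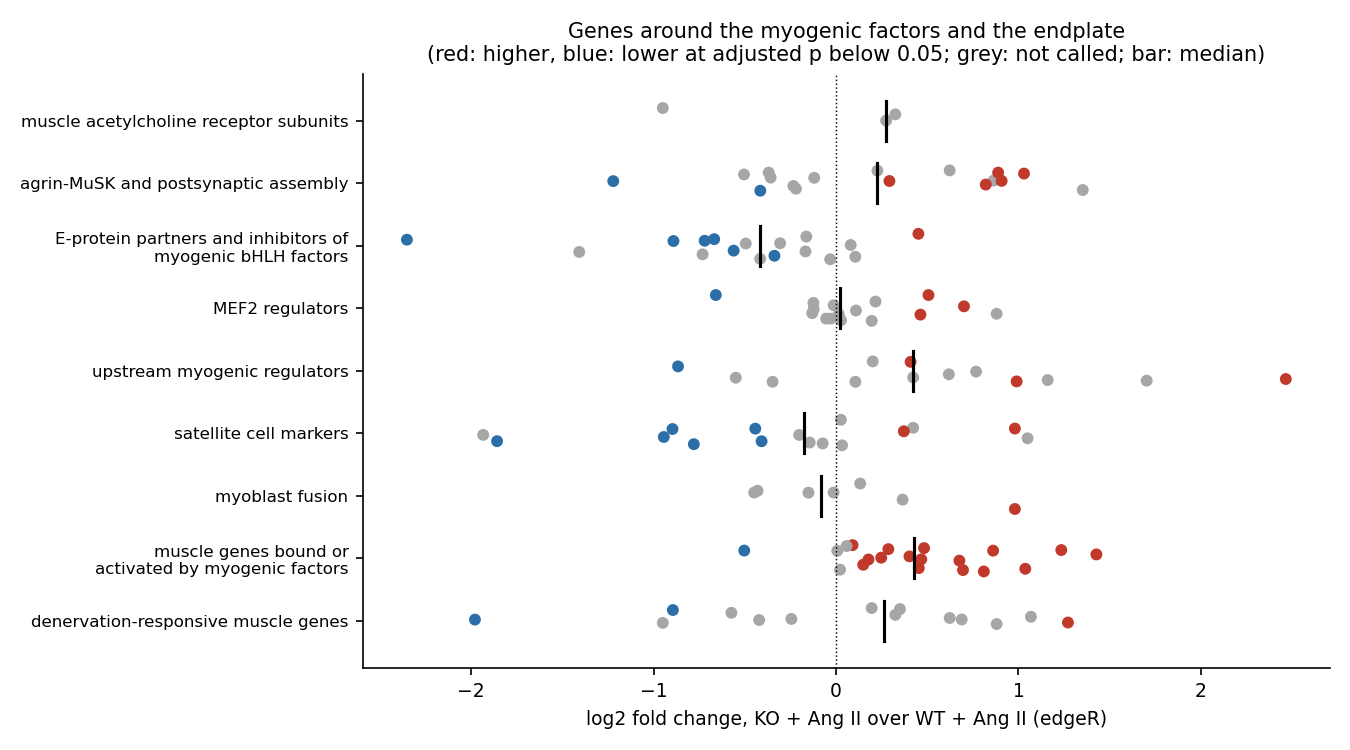
Log2 fold change of each tested gene of the 9 lists, libraries labelled KO over those labelled WT, with red for genes called higher, blue for genes called lower, grey for the rest and a bar at the list's median over all tested genes. Adgrb3, at 0 in every library labelled KO, is left out of the points. The list of fibre genes has 16 of 20 points in red, and the list of E-protein partners and inhibitors has its median at -0.42.

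Markers of several cell types also differed between the groups. The share of tested markers called was 80% for skeletal muscle, 85.7% for slow fibres, 100% for fibroblasts and 87.5% for smooth muscle. It was 37.5% for Schwann cells and nerve, 66.7% for neutrophils, 62.5% for endothelium, 75% for adipocytes and 75% for cardiac muscle. Over all genes tested it was 22%. For skeletal muscle, 8 of 10 markers were higher and 0 lower in edgeR. Their summed level was 23599 to 24212 CPM in the libraries labelled KO and 16646 to 17063 CPM in those labelled WT. Acta1, Ckm, Myh2, Myh4, Mylpf, Tnnt3 and Actn3 are also in the list of fibre genes, so this count is not a separate observation. Of 7 slow-fibre markers 6 were lower, with sums of 1351 to 1396 CPM in the libraries labelled KO and 2161 to 2239 CPM in those labelled WT. All 8 fibroblast markers were lower (516.5 to 519.1 CPM in the libraries labelled KO, 1134 to 1162 CPM in those labelled WT). So were 7 of 8 smooth muscle markers (177.1 to 180.6 CPM in the libraries labelled KO, 543.2 to 550.6 CPM in those labelled WT). The aorta's own smooth muscle markers therefore summed to far less than those of skeletal muscle in all 6 libraries. Myocd, among these 8, was at 0 in every library labelled KO and passed the filter on low counts only through those labelled WT. It is given as a description, at least 2.63-fold lower at a floor of 12 counts per library. The 87.5% share for smooth muscle has it among the 8 tested markers, so that share is also a description. Of 8 Schwann cell and nerve markers 3 were lower and 0 higher (28.9 to 30.8 CPM in the libraries labelled KO, 43.9 to 55.6 CPM in those labelled WT). Neutrophil markers were higher in 4 of 6 (25.4 to 29.9 CPM in the libraries labelled KO, 2.33 to 3.49 CPM in those labelled WT). Retnlg, among these 6, was at 0 in every library labelled WT and passed the filter only through those labelled KO. It is likewise a description, at least 10.7-fold higher at that floor, as is the 66.7% share, which has Retnlg among its 6 tested markers. Endothelial markers were higher in 2 and lower in 3 of 8 (434.8 to 442.7 CPM in the libraries labelled KO, 416.0 to 437.3 CPM in those labelled WT). Adipocyte markers were higher in 2 and lower in 4 of 8 (2278 to 2387 CPM in the libraries labelled KO, 2365 to 2436 CPM in those labelled WT), and cardiac markers were higher in 1 and lower in 2 of 4 tested (58.7 to 72.4 CPM in the libraries labelled KO, 58.9 to 65.1 CPM in those labelled WT, with Nppa at 0 in every library labelled WT). The part of these shifts in the results was not tested, and in bulk RNA fewer cells of a type and less RNA per cell cannot be told apart.

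Ratios to muscle transcripts, chosen after the values were seen and given without a test, set the members against chosen muscle genes. The sum of the 10 skeletal muscle markers was itself higher in the libraries labelled KO, while that of the slow-fibre markers was lower. The ratios therefore do not measure levels per amount of muscle RNA. Per megacount of the 10 skeletal muscle markers, Myf6 had 357.2 ± 56.1 counts in the libraries labelled KO and 234.4 ± 44.2 in those labelled WT (SD, n = 3 each). That was 1.52-fold higher, with ranges of 296 to 406 in the libraries labelled KO and 204 to 285 in those labelled WT that did not overlap. Mef2d had 2075 ± 83.8 counts in the libraries labelled KO and 2231 ± 209.9 in those labelled WT on this scale, with overlapping ranges and a ratio of 0.930. Mef2a had 1162 ± 23.3 in the libraries labelled KO and 1887 ± 149.6 in those labelled WT. Mef2c had 3038 ± 121.2 in the libraries labelled KO and 4043 ± 234.7 in those labelled WT. The ratio of the libraries labelled KO to those labelled WT was 1.14 for Myog, 1.09 for Musk, 0.949 for Pax7, 0.881 for Chrna1, 0.756 for Myod1 and 0.607 for Myf5, with overlapping ranges for these 6 genes. The ratios depended on the denominator. Against Ckm alone, the muscle creatine kinase gene, they were 2.03 for Myf6, 1.24 for Mef2d, 0.999 for Mef2c and 0.820 for Mef2a. On that scale they were 1.52 for Myog, 1.45 for Musk, 1.26 for Pax7, 1.17 for Chrna1, 1.01 for Myod1 and 0.814 for Myf5.

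Genes with a profile over the 6 libraries most like that of Myf6, Mef2c and Chrna1 were found by the mean absolute difference of centred log2 CPM over 11436 genes. These 3 have the highest mean count among the bHLH factors and Pax7, among the MEF2 factors, and among Chrna1 and Musk. For Myf6 they were Impa2 (0.092), Ung (0.107) and Abcc10 (0.111). Those nearest to Mef2c were Prdx6 (0.018), Ndufc2 (0.024) and Reep5 (0.024), and those nearest to Chrna1 were Zfp958 (0.085), Incenp (0.098) and AU021092 (0.113).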

How the data were processed

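One table held all values: raw gene counts, deposited by the authors as whole numbers, and FPKM, named so per the file headers. The submitters' processing notes name HISAT2 2.0, Bowtie 0.12.2 and the build mm8. The counting program, its strand setting and the way FPKM was computed are not given in these sources. Gene coordinates in the table were identical to GENCODE M21 on GRCm38 for 91.2% of 33815 shared genes (9 of the 10 members), so positions are GRCm38. Per the labels' protocols, poly(A) RNA was sequenced in pairs, and the text on the RNA speaks of an adipose type while the tissue label is aorta.

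Counts were tested with edgeR 4.0.16 in R 4.3.3 (filterByExpr, TMM scaling, quasi-likelihood F-test on genotype alone, two-sided, Benjamini-Hochberg adjustment over 16620 genes, threshold 0.05), and the method was tested on simulated data. Alternatives used DESeq2 1.42.0 and limma 3.58.1. Small counts fell on multiples of 4 too often (33.0% to 34.9% of values from 1 to 40, against 25%), so a floor was set at 12 counts per library. That would be 3 read pairs if each pair gave 4 counts. Most small values were not multiples of 4, and this conversion was not tested. Intervals and floors cover counting and library spread only. Per-kilobase levels divide CPM by the longest GENCODE transcript. The 10 members and the 9 gene and 9 marker lists were chosen with earlier results of these data known. Named from each list were the called genes, at most 4 by smallest p, or, under 2 calls, genes of highest FPKM up to 2. Some genes this rule picks are left out of the text and not reported here. Other genes are marked as named after their values were seen, or given as uncalled members of a family. Same-numbered libraries were not paired. There were 0 unnamed rows and 0 columns of other samples. Figures used matplotlib 3.10.9.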

Additional observations from a re-analysis of the deposited data

How the results depend on the processing

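Myf6 (log2 fold change 1.01 to 1.26) and Mef2d (0.32 to 0.54) were called in all 16 alternatives. DESeq2 called 1 of the 10 members lower (Mef2a), against 0 in edgeR, where Mef2a was the 1 member lower at an unadjusted p under 0.05. Genes called lower over all genes numbered 1751, against 2650 in DESeq2, 1006 in limma on log2(FPKM + 1), 1000 at a pseudocount of 0.1 and 754 without a filter on low values. Genes of the lists called lower numbered 20, Adgrb3 among them, against 11, 11 and 9 in these 3 limma fits. In those fits the median gene moved by up to 0.13 on the log2 scale, against -0.02 in edgeR. The causes were not tested. The Myf5 log2 fold change reversed to 0.0017 and 0.044 in limma at pseudocounts of 1 and 0.1, to 0.0017 without the filter, to 0.11 without the third library labelled KO and to 0.53 without the second labelled WT, and ran from -0.83 to 0.53 over the fits without 1 library. The Myod1 log2 fold change ran from -0.13, without the first library labelled KO, to 0.28. Leaving out 1 library in turn gave 2 members higher and 0 lower each time, 1465 to 1703 genes higher and 1411 to 1468 lower over all genes, and 28 to 30 list genes higher and 14 to 19 lower. With the replicate number as a block, 2 members were higher and 0 lower, and 1703 genes were higher and 1552 lower over all genes. The deviations of KO and WT libraries correlated between -0.047 and 0.029 over all pairings, and at 0.024, -0.0086 and 0.018 for shared numbers. No pairing by number was seen, though 3 libraries per group are too few to exclude a shared batch. Of the genes named, Akap6 (adjusted p = 0.068) and Adgrb3 (0.070) lost their call under the block. Dok7, Cd34 and Notch3 lost theirs only in limma on FPKM, where Camk2d also lost its call in all 3 fits. Without the filter on low counts Akap6 (0.069) and Adgrb3 (0.057) were not called. Myf5 was not tested at a mean CPM of at least 1 or with counts divided by 4, nor were Myog and Pax7 at that mean CPM.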
